A study of Acipenser dabryanus with 12 samples.

Results

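In a de novo transcriptome of the Yangtze sturgeon (Acipenser dabryanus), 57 assembled genes were abundant in every library and yet unequal between libraries. They were chosen by their measured values: at least 100 TPM in each of 12 libraries, and a highest value more than 5 times the lowest. TPM is transcript abundance corrected for transcript length and scaled so that each library sums to the same total. The 57 genes were 0.0203% of the 280408 assembled genes and 29.8% of the 191 genes that reached 100 TPM in every library. The remaining 134 of those 191, whose highest value was at most 5 times their lowest, are called the other abundant genes. Because all 12 libraries entered the choice, the values of the 57 genes are given as a description with no test. Tests were made only on genes chosen in 6 libraries and then examined in the other 6.

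The libraries came from brain, liver and spleen of fish about 6 months old. The fish had eaten a diet with soybean oil or a diet with fish oil for 7 weeks and were sampled 1 h after or 1 h before the single daily meal. Each of the 12 combinations of tissue, diet and meal state had 1 library, so no combination was replicated, and the SD of a tissue runs over 4 libraries that also differ in diet and meal. All fish of a diet shared 1 pond, so diet and pond cannot be told apart, and neither can meal state and sampling hour. The labels' protocols speak of 3 samples for a group at a time point and of 45 libraries, of which 12 are analysed here. They do not state how many fish stand behind a library, and their extraction text speaks of liver only. No gene ID was paired with a name, so the labelled tissues could not be checked against marker genes.

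Genes that are abundant in every organ commonly serve tasks all cells share, such as protein synthesis, energy metabolism and the cytoskeleton. Transcripts of blood cells also reach every organ that is sampled with its blood. The liver devotes much of its mRNA to secreted plasma proteins, the spleen is a blood-rich immune organ, and the brain consists mainly of neurons and glia. None of these roles could be assigned to any of the 57 IDs. In whole tissue, fewer cells of a type and less RNA per cell cannot be told apart.

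TPM holds no record of sequencing depth, and counting errors are therefore unknown. The number of genes detected at 1 TPM or more ran from 52435 to 78832 in brain, 29749 to 46726 in liver and 47226 to 62193 in spleen. The lowest number in brain and in liver was that of the soybean oil library before the meal. In that brain library the median of the 40733 genes above 0 in all libraries lay 0.27 below its tissue mean on the log2 scale, while the other abundant genes lay 0.43 above theirs and the 57 genes 0.25 above theirs. In that liver library the all-gene median was 0.36 below its tissue mean, the other abundant genes were 0.31 above theirs and the 57 genes 0.032 above theirs. In spleen the lowest number, 47226, was that of the fish oil library after the meal. Its median log2 deviation from the tissue mean was -0.38 over all genes, 0.076 in the other abundant genes and -0.010 in the 57 genes. In the spleen library of fish oil before the meal these medians were 0.32, -0.091 and -0.055. The spleen meal ratios on fish oil compare these spleen libraries. The part of these offsets in the results for the libraries named here was not tested.

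The 57 genes were mostly lowest in liver and highest in spleen or brain. The highest mean was in spleen for 33 genes, in brain for 21 and in liver for 3. The lowest mean was in liver for 40 genes, in brain for 10 and in spleen for 7. The most common order, spleen above brain above liver, held for 24 genes, and brain above spleen above liver for 16. Spleen above liver above brain held for 9, brain above liver above spleen for 5, liver above brain above spleen for 2 and liver above spleen above brain for 1. The fold between the highest and the lowest library had a median of 11.02 and ran from 5.04 to 103.1. In the 9 genes ordered spleen, liver, brain the median of this fold was 38.2. These 9 include the group of 5 genes described below, which varied widely within tissues. The median was the fold of TRINITY_DN111081_c5_g1, which spanned 19.8-fold within spleen and 8.85-fold within liver.

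Separation between tissues was complete for many of these genes. All 4 liver libraries lay below the other 8 for 28 of the 57 genes, against 18.3% of the 89972 expressed genes, those that reached 1 TPM in 2 or more libraries. All 4 spleen libraries lay above the other 8 for 11 genes (all expressed genes: 5.74%), and all 4 brain libraries for 11 (all expressed genes: 15.5%). All 4 liver libraries lay above the other 8 for 2 genes (background 4.49%). All 4 spleen libraries lay below the others for 2 genes (background 2.81%) and all 4 brain libraries for 0 (background 0.525%). The choice by range favours such genes, so nothing is read from these counts. Among the other abundant genes, all liver libraries were lowest for 41 of 134, all brain libraries highest for 15 and all spleen libraries highest for 4.

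**Figure D1:**
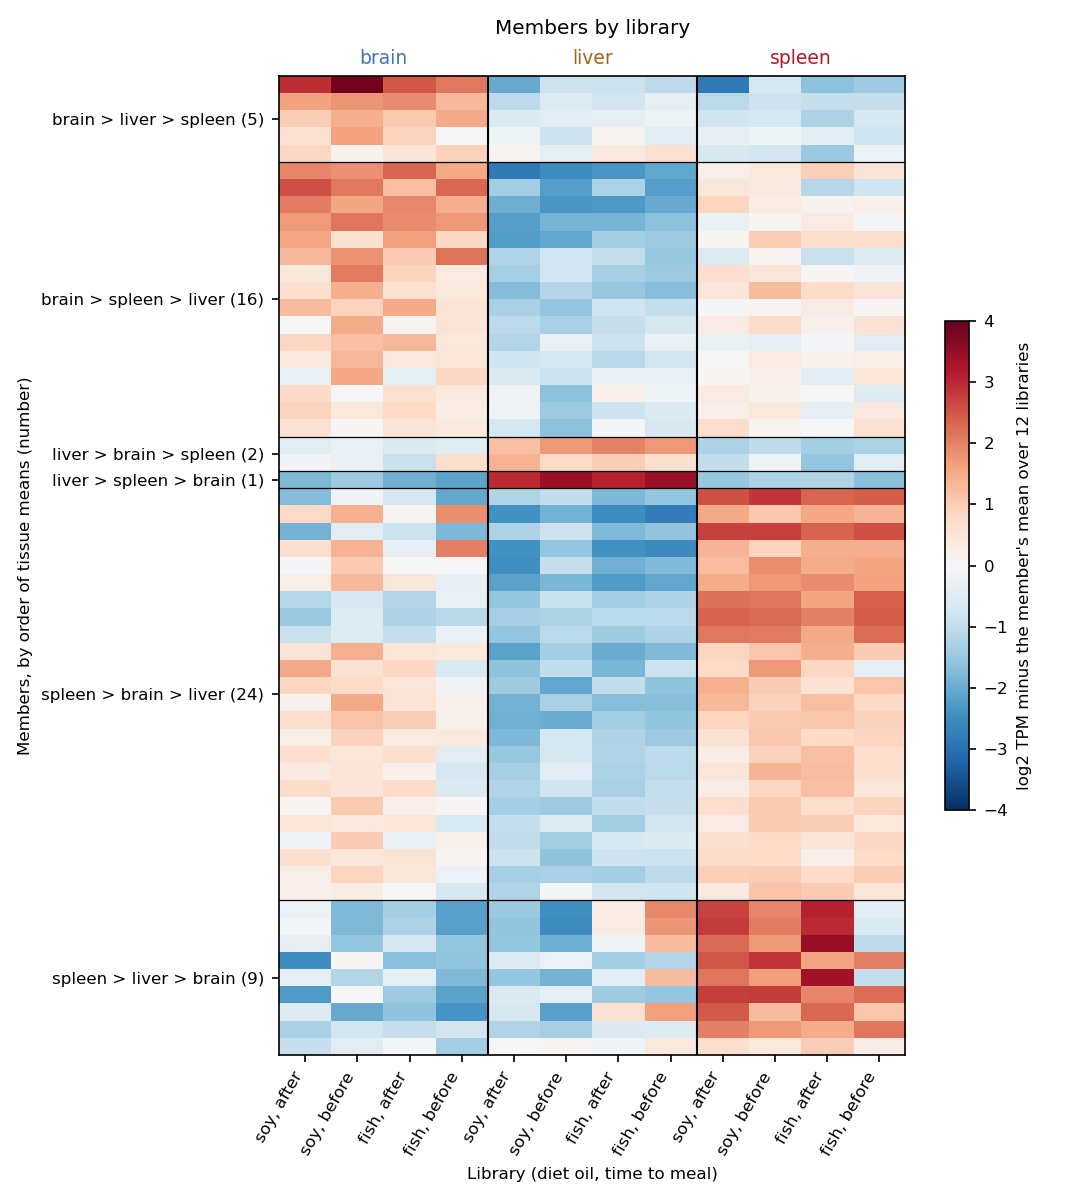
The heat map shows log2 TPM minus the gene's mean over the 12 libraries, 1 line per gene and 1 column per library, with genes grouped by the order of their tissue means. Liver is mostly blue in the 40 genes with their lowest tissue mean there, and the last block of 9 genes, highest in spleen, has an uneven pattern within liver and spleen.

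How far liver lay below depended on scaling. On TPM as deposited, 45 of the 57 genes had a higher mean in brain than in liver, with a median log2 ratio of 1.45, beside 0.77 in the other abundant genes and 0.60 over all expressed genes (on log2 of TPM plus 1). The mean was higher in brain for 121 of the 134 other abundant genes and 67261 of the 89972 expressed genes. Liver was lower than spleen for 49 of the 57, with a median log2 ratio of -1.95, beside -0.91 in the other abundant genes and -0.34 over all expressed genes. It was lower for 116 of the 134 other abundant genes and 59697 of the 89972 expressed genes. Lower means in liver were thus not particular to the 57 genes. Brain was higher than spleen for 23 and lower for 34, with a median log2 ratio of -0.36, beside -0.24 in the other abundant genes and 0.14 over all expressed genes. Of the 134 other abundant genes 45 were higher in brain and 89 lower, and of the expressed genes 51781 and 36418. When each library was divided by its median ratio over the 191 abundant genes, the medians of the 57 became 0.64 for brain over liver (38 genes higher, 19 lower), -0.94 for liver over spleen (14 higher, 43 lower) and -0.15 for brain over spleen (25 higher, 32 lower). The medians over all expressed genes were then 0.32, -0.015 and 0.23. The 191 genes include the 57, and their log2 median ratio was -0.41 to -0.88 in the liver libraries. Dividing by it narrows the liver contrasts of the 57 by construction. Under that scaling 29 genes had their lowest mean in liver, and 36 of the 57 still exceeded the 5-fold range. Quantile normalization, which gives every library the same distribution, moved the same medians to 1.97, -2.27 and -0.16, with 46 genes lowest in liver and 56 above the 5-fold range.

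Brain libraries held the highest levels of the gene with the widest range. TRINITY_DN117047_c2_g1 stood at 3161, 4141, 5761 and 10712 TPM in the brain libraries, against 183, 355, 403 and 406 TPM in the liver libraries and 104, 237, 267 and 459 TPM in the spleen libraries. Brain did not overlap with either other tissue, while liver and spleen overlapped. Its mean was 5944 ± 3355 TPM over the brain libraries, 337 ± 105 TPM over the liver and 267 ± 146 TPM over the spleen libraries (SD, n = 4 each), and its highest library was 103.1 times its lowest. TRINITY_DN140498_c2_g1 had the highest ratio of brain over liver, a log2 ratio of 4.34. It stood at 4306 ± 998 TPM over the brain libraries, 212 ± 45.6 TPM over the liver and 1645 ± 366 TPM over the spleen libraries (SD, n = 4 each), and the 3 tissues did not overlap, with brain at 3229.8 to 5620.4 TPM, liver at 159 to 267 TPM and spleen at 1318 to 2165 TPM. TRINITY_DN143084_c5_g1 was another brain gene of this kind, at 978 ± 166 TPM over the brain libraries, 195 ± 36.3 TPM over the liver and 160.5 ± 11.2 TPM over the spleen libraries (SD, n = 4 each), with a log2 ratio of brain over spleen of 2.59.

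Liver was the highest tissue for few of the 57 genes, but 1 of them gave the sharpest split by tissue. TRINITY_DN133784_c1_g1 stood at 284, 329, 357 and 451 TPM in the brain libraries, 9789, 10598, 13419.9 and 13663 TPM in the liver libraries and 395, 439.8, 522 and 545 TPM in the spleen libraries. Liver stood far apart, with no overlap with either other tissue, and brain and spleen overlapped. Its log2 ratio was -5.07 for brain over liver and 4.64 for liver over spleen. TRINITY_DN121519_c1_g1 followed at 445 ± 42.8 TPM over the brain libraries, 1949 ± 421 TPM over the liver and 260.1 ± 28.1 TPM over the spleen libraries (SD, n = 4 each), again with liver apart from the rest.

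Several genes stood far higher in spleen than in the other tissues. TRINITY_DN121269_c4_g1 stood at 589, 623, 1192 and 1577 TPM in the brain libraries, 644, 732, 922 and 1222 TPM in the liver libraries and 11010.0, 12979.9, 14335 and 14373 TPM in the spleen libraries. Brain and liver overlapped and spleen lay above both. Its log2 ratio was -3.85 for brain over spleen. TRINITY_DN137651_c2_g1 was at 1725 ± 1020.3 TPM over the brain libraries, 1309 ± 323 TPM over the liver and 19492 ± 3226 TPM over the spleen libraries (SD, n = 4 each). TRINITY_DN110371_c0_g1 was at 326 ± 274 TPM over the brain libraries, 391 ± 156 TPM over the liver and 4043 ± 1117 TPM over the spleen libraries (SD, n = 4 each), the lowest ratio of brain over spleen among the 57, at a log2 ratio of -3.91. For both of these genes too, every spleen library was above every brain and liver library. The genes named in this paragraph belong to the same set of 6, linked by correlated deviations within tissues and given under other observations.

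Together the 57 genes took 13.7% ± 2.15 of all TPM in brain, 5.91% ± 1.62 in liver and 22.6% ± 4.17 in spleen (SD, n = 4 each), and the tissues did not overlap. All 191 abundant genes, the 57 included, took 32.4% to 45.5% in brain, 15.9% to 22.4% in liver and 41.8% to 54.4% in spleen. A low share in liver was thus not particular to the 57 genes. The values below are again those of the 57. In brain the share was 13.2% after and 16.2% before the meal on soybean oil, and 11.1% after and 14.4% before it on fish oil. In liver it was 4.48% after and 5.09% before the meal on soybean oil, and 5.89% after and 8.17% before it on fish oil. In spleen it was 23.9% after and 21.9% before the meal on soybean oil, and 27.3% after and 17.3% before it on fish oil.

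The variation of each gene on the log2 TPM scale was split into tissue, diet, meal and their interactions, which add up to its whole sum of squares. Tissue was the largest of the 7 parts in 57 of the 57 genes, in 123 of the 134 other abundant genes (91.8%) and in 80.5% of the 40733 genes above 0 in all libraries. The tissue part had a median of 88.8% in the 57 genes and ran from 34.3% to 99.1%, beside medians of 70.5% in the other abundant genes and 69.5% in all genes above 0. A split of equal variance over the degrees of freedom would give tissue 18.2%. The tissue part was at least 90% in 28 genes, 75% to under 90% in 14, 50% to under 75% in 10 and below 50% in 5. As the genes were chosen for a wide range and the tissues differ most, a high tissue part is tied to the choice.

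The diet and meal parts were small in most of the 57 genes. The diet part had a median of 0.669% and a maximum of 8.80%, and the meal part a median of 1.12% and a maximum of 24.9%. The interactions together had a median of 7.27% and a maximum of 44.3%. In the other abundant genes the medians were 2.0% for diet, 3.7% for meal and 20.3% for the interactions. In the 40733 genes above 0 in all libraries they were 1.5%, 1.4% and 22.7%. As the parts add up to the whole, low parts beside tissue are likewise tied to the choice of the 57 genes. With the squares of all 57 genes added up, tissue took 84.6%, diet 1.27%, meal 2.48%, tissue by diet 4.32%, tissue by meal 3.03%, diet by meal 1.59% and the 3-way interaction 2.76%. In the other abundant genes the pooled tissue part was 70.2% and the diet-by-meal part 9.35%. The SD of log2 TPM within tissues had a median of 0.42 in the 57 genes and 0.34 in the other abundant genes.

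**Figure D2:**
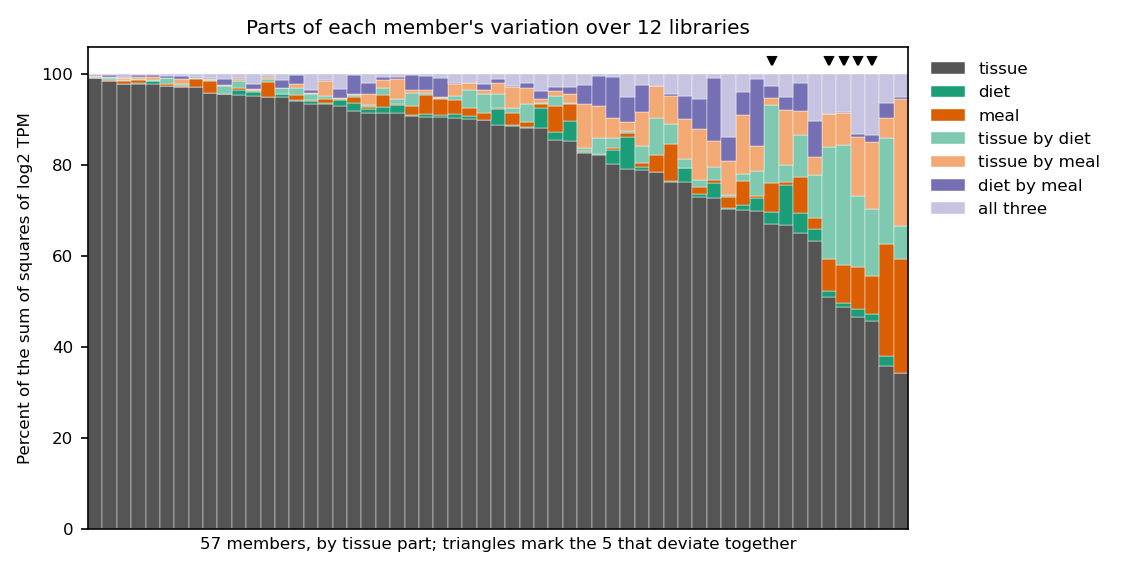
Each bar is 1 of the 57 genes, ordered by its tissue part, and stacks the 7 parts as percent of its sum of squares of log2 TPM. Tissue is the tallest part in every bar, and the 5 genes under the triangles have wide interaction parts.

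The highest diet parts belonged to TRINITY_DN117242_c0_g1 (8.80%) and TRINITY_DN114044_c3_g2 (7.09%). TRINITY_DN114044_c3_g2 stood at 861 TPM after and 2619 TPM before the meal in brain on soybean oil, and at 1162 TPM after and 789.6 TPM before it on fish oil. A single brain library, soybean oil before the meal, was well above the other 3. The highest meal parts belonged to TRINITY_DN112421_c0_g2 (24.9%) and TRINITY_DN125266_c4_g1 (24.7%). TRINITY_DN112421_c0_g2 also had the lowest tissue part of all 57 genes, at 34.3%. In brain it stood at 450.0 TPM after and 1637 TPM before the meal on soybean oil, and at 426 TPM after and 992 TPM before it on fish oil. Both brain libraries before the meal were above both after it, whereas its liver libraries spanned only 304 to 466 TPM.

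The extremes were spread unevenly over the libraries. The highest of a gene's 12 values was in the spleen library of soybean oil before the meal for 12 genes, in the brain library of soybean oil before the meal for 11 and in the spleen library of fish oil after the meal for 9. The lowest value was in the liver library of soybean oil before the meal for 18 genes and in that of soybean oil after the meal for 14. These counts and those of the farthest library given next were not made for the other abundant genes. Library scale also differed. Before the meal on soybean oil the log2 median ratio over the abundant genes was 0.65 in spleen, 0.62 in brain and -0.41 in liver. After the meal on soybean oil it was -0.88 in liver. The part of this scale in the counts was not tested. The library farthest from its own tissue's mean on the log2 scale was the brain library of soybean oil before the meal for 18 genes and that of fish oil before the meal for 14. These brain libraries lay on opposite sides of the mean. With soybean oil before the meal 43 of the 57 genes were above their brain mean, and with fish oil before the meal 46 were below it. These shifts were not particular to the 57 genes. The median log2 deviation of the other abundant genes was 0.43 in the soybean oil library and -0.29 in the fish oil library. That of the 57 genes was 0.25 and -0.35.

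Of the squared deviations from the tissue means, added over the 57 genes, the spleen library of fish oil before the meal carried 15.5%, the liver library of soybean oil before the meal 14.3% and the liver library of fish oil before the meal 13.1%. The brain libraries before the meal carried 10.9% with soybean oil and 9.89% with fish oil. The other 7 libraries carried 3.27% to 8.83% each.

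**Figure D3:**
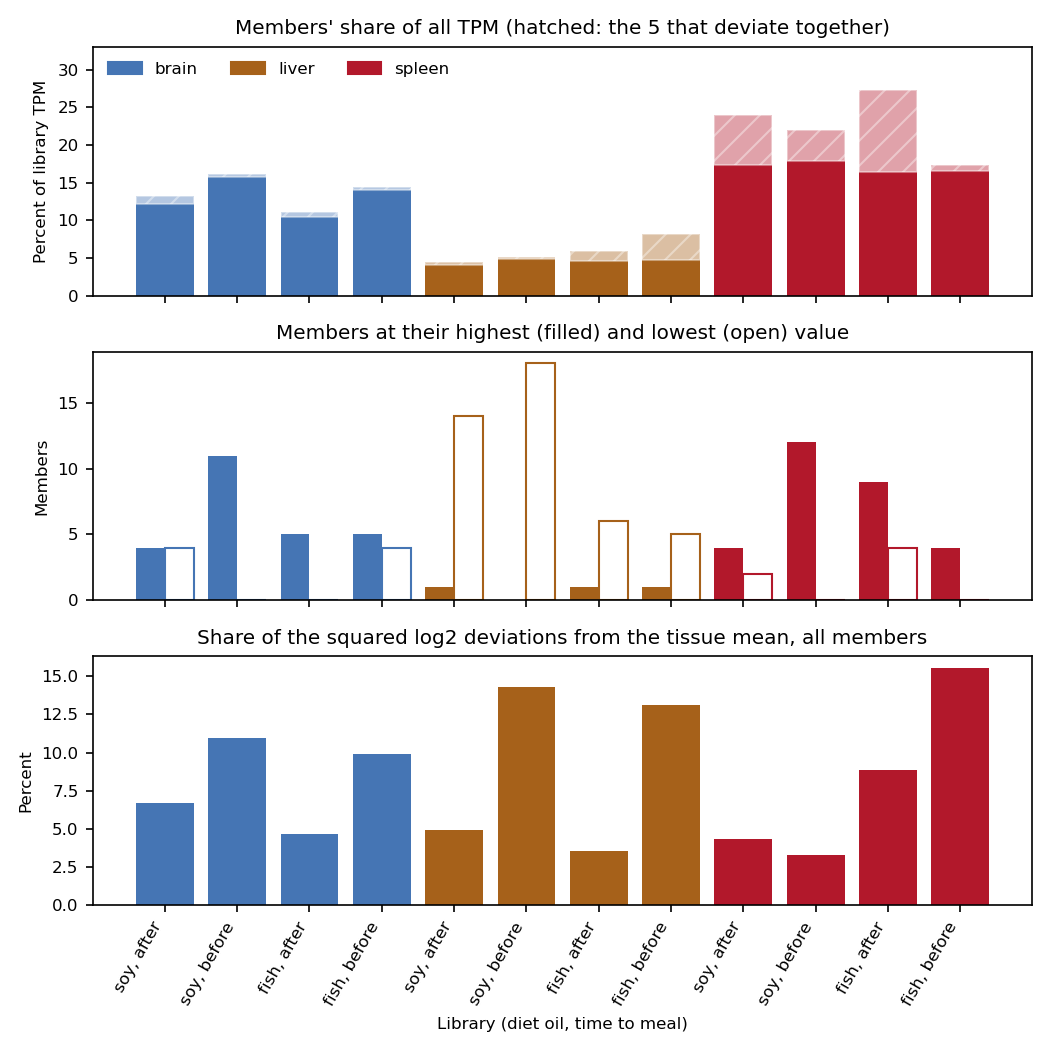
The top panel gives the share of each library's TPM in the 57 genes (percent), the middle panel the number of genes with their highest or lowest value in the library, and the bottom panel the library's percent of the squared log2 deviations from the tissue means. The spleen bars are tallest in the top panel, open bars stand mostly in liver, and the hatched part, the 5 genes that deviate together, is 10.9% of TPM in spleen with fish oil after the meal and 0.817% before it.

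The 5-fold range held without any 1 library for 41 of the 57 genes. For 16 it was lost when 1 library was left out, here called resting on it. These 16 had ranges of 5.04 to 6.90, close to the limit, and a range can only shrink when a library is left out. Some of the 16 rested on either of 2 libraries in this way. The liver library of soybean oil before the meal was such a library for 6 genes and the brain library of soybean oil before the meal for 5. TRINITY_DN125266_c4_g1 stood at 2123 TPM after and 758 TPM before the meal in liver on soybean oil, and at 2693 TPM after and 2089.9 TPM before it on fish oil. Its range was 5.23, 2.42 without the liver library of soybean oil before the meal and 4.73 without the brain library of soybean oil after the meal. For TRINITY_DN101462_c1_g1 the range was 5.21, and 3.84 without the liver library of fish oil after the meal. Wider ranges also leaned on single libraries without losing the 5-fold limit. That of TRINITY_DN117047_c2_g1 was 103.1, and 58.5 without the spleen library of soybean oil after the meal, and that of TRINITY_DN114044_c3_g2 was 11.5, and 5.09 without the brain library of soybean oil before the meal. TRINITY_DN143133_c3_g1 had a range of 40.7, and 23.3 without the brain library of soybean oil after the meal, where it stood at 244 TPM. For the remaining libraries, TRINITY_DN140498_c2_g1 had a range of 35.3, and 27.5 without brain with fish oil after the meal, TRINITY_DN109100_c1_g1 one of 19.9, and 13.8 without liver with soybean oil after the meal, and TRINITY_DN119422_c0_g2 one of 13.1, and 10.4 without liver with fish oil before the meal. TRINITY_DN111950_c0_g1 had a range of 15.2, and 13.2 without spleen with fish oil before the meal. TRINITY_DN111081_c5_g1 had a range of 38.2, and 16.2 without spleen with fish oil after the meal.

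A group of 5 genes carried much of the variation within tissues. After each tissue's mean was subtracted, these 5 varied over the libraries together, with correlations of 0.772 to 0.998 and a median of 0.946 over their 10 pairs across 12 libraries. The group was picked after its values were seen, by links of at least 0.9, and its correlations are a description: the points share library and scaling. Over all 1596 pairs of the 57 genes the median correlation was 0.169, and 27 pairs reached 0.9. The 5 genes made up 48.7% of the squared deviations from tissue means of all 57 genes. Their IDs fell in different Trinity components, and TRINITY_DN118130_c1_g3 is named here because it is 1 of the 5. Whether IDs of different components are parts or copies of the same gene was not checked, as no sequence was used.

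TRINITY_DN142540_c9_g1 reached the highest level of the group. In spleen it stood at 16329 TPM after and 11260.4 TPM before the meal on soybean oil, and at 37415 TPM after and 1669 TPM before it on fish oil. In liver it stood at 1161 TPM after and 864 TPM before the meal on soybean oil, and at 3033 TPM after and 8032 TPM before it on fish oil. In brain it stood at 2712 TPM after and 1146 TPM before the meal on soybean oil, and at 2124 TPM after and 1152 TPM before it on fish oil. The fish oil spleen before the meal thus lay below the brain libraries after the meal and below both fish oil livers.

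The other 4 genes had the same order of liver libraries and the same lowest spleen library. In spleen, TRINITY_DN111081_c5_g1 stood at 10938 TPM after and 7887 TPM before the meal on soybean oil, and at 25733 TPM after and 1301 TPM before it on fish oil. In liver, TRINITY_DN111227_c0_g1 stood at 1047 TPM after and 537 TPM before the meal on soybean oil, and at 3622 TPM after and 10967 TPM before it on fish oil. TRINITY_DN141486_c5_g2 stood in liver at 728 TPM after and 380.2 TPM before the meal on soybean oil, and at 2723 TPM after and 7449 TPM before it on fish oil. For all 5 genes the order of the liver libraries was the same, with fish oil before the meal highest and soybean oil before the meal lowest. The fish oil library before the meal was the lowest of the 4 spleen libraries for each of them. TRINITY_DN118130_c1_g3 differed least there, at 1838 TPM with soybean oil and 1653 TPM with fish oil before the meal.

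As a share of TPM the 5 genes took 6.56% after and 4.13% before the meal in spleen on soybean oil, and 10.9% after and 0.817% before it on fish oil. In liver they took 0.429% after and 0.263% before the meal on soybean oil, and 1.24% after and 3.48% before it on fish oil. In brain they took 0.972% after and 0.394% before the meal on soybean oil, and 0.640% after and 0.317% before it on fish oil. Without them, the share of the other 52 genes was 16.4% to 17.8% in spleen and 4.05% to 4.83% in liver, a narrower span in both tissues than that of all 57 genes. In brain the share without them was still 10.4% to 15.8%. Within the remaining 52 genes, the spleen library of fish oil before the meal carried 4.26% of the squared deviations and the brain library of soybean oil before the meal 20.4%. The median tissue part of the 52 genes was 90.2%. Markers of blood or other cells could not be set beside these values, as no ID has a name, and their part in them was not tested.

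**Figure D4:**
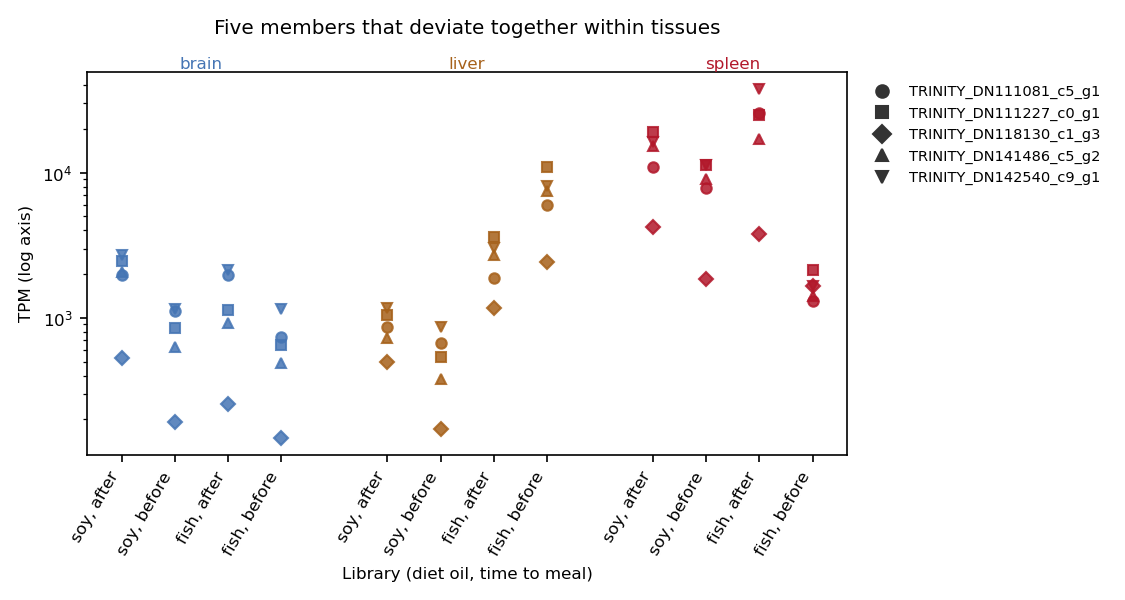
TPM on a log axis for the 5 genes that deviate together, 1 symbol per gene and 1 column per library. In spleen the fish oil library before the meal is the lowest for each gene, and in liver it is the highest.

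Diet was compared between single libraries of the same tissue and meal state, soybean oil over fish oil, with no test. A gene was counted when its values differed by more than 2-fold, and 25 of the 57 genes did so in at least 1 of the 6 pairs, as did 25 of the 134 other abundant genes and 86.1% of all expressed genes. In brain before the meal 16 genes were counted, all higher with soybean oil (28.1% of the 57, background 44.9%), and after the meal 6 (10.5%, background 32.2%). In liver after the meal 6 were counted, all lower with soybean oil (10.5%, background 33.1%), and before the meal 9, 2 higher and 7 lower (15.8%, background 38.9%). In spleen after the meal 4 were counted (7.02%, background 45.1%), and before the meal 6, all higher with soybean oil (10.5%, background 38.9%). The share of the 57 genes was below that of all expressed genes in each pair. That background includes genes of far lower TPM. In the other abundant genes the shares after and before the meal were 0% and 12.7% in brain and 0% and 2.99% in liver. In spleen they were 2.99% and 0.746%. Each was below that of the 57 genes, and the limit on the range of the other abundant genes restricts such folds. The brain count before the meal depended on scaling. The median log2 diet ratio of that pair was 0.67 in the 57 genes and 0.77 in the other abundant genes, but -0.25 over all expressed genes (on log2 of TPM plus 1). On soybean oil 7 of the 57 stood higher and 3 lower after quantile normalization, and 3 stood higher and 9 lower after median-ratio scaling. The median ratio is taken over abundant genes that include the 57. The part of the library offset in this count was not tested.

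Few genes passed 2-fold in both diet pairs of a tissue. In liver 5 genes were more than 2-fold lower with soybean oil after and before the meal (background 7.09%), and in spleen 1 gene was more than 2-fold higher in both (background 3.32%). The 5 liver genes were exactly the group of 5 that deviated together within tissues, so they show 1 shared pattern picked by these same values. The same 5 liver genes passed after quantile normalization. After median-ratio scaling 4 of them did, all but TRINITY_DN111081_c5_g1, and TRINITY_DN110371_c0_g1 was then more than 2-fold higher in both. The spleen gene passed under neither scaling. The signs disagreed between meal states for 36 of the 57 genes in brain, 20 in liver and 36 in spleen, and for 65, 91 and 110 of the 134 other abundant genes in the same tissues. In liver 27 of the 57 were lower and 10 higher in both pairs, and of the 134 other abundant genes 37 were lower and 6 higher.

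In liver the lowest diet ratios were those of TRINITY_DN141486_c5_g2 and TRINITY_DN111227_c0_g1, of the group of 5. TRINITY_DN141486_c5_g2 was at 0.267 times its fish oil value after the meal and at 0.0511 times before it, and TRINITY_DN111227_c0_g1 at 0.289 and 0.0489 times. TRINITY_DN110371_c0_g1 stood on the other side, at 482 TPM with soybean oil and 269 TPM with fish oil in liver after the meal, and at 563 TPM with soybean oil and 248 TPM with fish oil before it. TRINITY_DN143133_c3_g1, of the same linked set as TRINITY_DN110371_c0_g1, was at 1.75 times its fish oil value in liver after the meal and at 1.94 times before it. In spleen this gene was at 1.84 times after the meal and 1.83 times before it. Median-ratio scaling put it past 2-fold after the meal, at 2.08 times in liver and 2.20 times in spleen. In brain its 4 libraries ran from 244 to 1451 TPM with soybean oil at both ends, so the diet ratio turned there between meal states.

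In spleen TRINITY_DN131640_c0_g1 was the gene past 2-fold in both pairs. It stood at 2271 TPM with soybean oil and 749 TPM with fish oil after the meal, and at 2099 TPM with soybean oil and 955 TPM with fish oil before it. The diets did not overlap in spleen, and the folds were 3.03 after and 2.20 before the meal. Before the meal the fold was 1.83 after quantile normalization and 1.73 after median-ratio scaling, so the 2-fold limit was passed there only on TPM as deposited. In brain the same gene was higher with soybean oil after the meal (9869 against 3821 TPM with fish oil) and lower before it (7065 against 8039 TPM with fish oil). On the lower side in spleen, TRINITY_DN140498_c2_g1 was at 0.609 times its fish oil value after and 0.933 times before the meal. TRINITY_DN109498_c1_g1 was at 0.935 and 0.678 times, and its ratio after the meal turned above 1 when libraries were scaled by the median ratio of the abundant genes, at a log2 ratio of 0.16.

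In brain TRINITY_DN117047_c2_g1 stood at 5761 TPM with soybean oil and 4141 TPM with fish oil after the meal, and at 10712 TPM with soybean oil and 3161 TPM with fish oil before it. The folds were 1.39 after and 3.39 before the meal. TRINITY_DN117242_c0_g1 was at 1.60 times its fish oil value after the meal and at 2.30 times before it. Before the meal the fold of TRINITY_DN117047_c2_g1 was 2.16 after quantile normalization and 2.01 after median-ratio scaling, and that of TRINITY_DN117242_c0_g1 was 1.94 and 1.36, below 2-fold. On the lower side in brain, TRINITY_DN128850_c2_g2 was at 0.790 times its fish oil value after and 0.981 times before the meal, and TRINITY_DN126164_c1_g1 at 0.936 and 0.849 times. Before the meal TRINITY_DN128850_c2_g2 was at 0.780 times after quantile normalization and 0.581 times after median-ratio scaling, and TRINITY_DN126164_c1_g1 at 0.503 and 0.502 times.

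The meal was compared in the same way, after over before, between single libraries of the same tissue and diet. Of the 57 genes, 33 differed by more than 2-fold in at least 1 of 6 pairs, against 24 of the 134 other abundant genes and 87.9% of all expressed genes. In brain 16 genes were counted with soybean oil, 4 higher and 12 lower after the meal (28.1%, background 38.4%), and 13 with fish oil, 7 higher and 6 lower (22.8%, background 46.3%). In liver 7 were counted with soybean oil (12.3%, background 38.1%) and 5 with fish oil, all lower after the meal (8.77%, background 33.4%). In spleen 2 were counted with soybean oil (3.51%, background 36.5%) and 8 with fish oil, 6 higher and 2 lower (14.0%, background 46.3%). Again the share of the 57 genes was below that of all expressed genes in each pair. In the other abundant genes it was 6.72% with soybean oil and 5.22% with fish oil in brain, and 5.97% and 0% in liver. In spleen it was 0% and 3.73%, so the share of the 57 genes was the higher one in each pair. Of the 57 genes 24 had opposite signs under the 2 diets in brain, 24 in liver and 28 in spleen, as had 87, 36 and 101 of the 134 other abundant genes. With soybean oil the directions depended on scaling: after median-ratio scaling 10 genes were higher and 6 lower in brain, 11 higher and 1 lower in liver, and 6 higher and 1 lower in spleen.

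In brain 1 gene was more than 2-fold lower after the meal with both oils (background 3.97%), and in spleen 1 gene was more than 2-fold higher with both (background 2.76%). The brain gene was TRINITY_DN112421_c0_g2, at 0.275 times its value before the meal on soybean oil and 0.430 times with fish oil. The spleen gene was TRINITY_DN118130_c1_g3 of the group of 5, at 4223 TPM after and 1838 TPM before the meal on soybean oil, and at 3783 TPM after and 1653 TPM before it on fish oil. The brain gene passed under both other scalings, and 2 further genes, TRINITY_DN111081_c5_g1 and TRINITY_DN117242_c0_g1, were then more than 2-fold higher after the meal with both oils in brain. The spleen gene did not pass after quantile normalization, and after median-ratio scaling 4 of the group of 5 passed. In liver 0 genes passed with both oils, and after median-ratio scaling TRINITY_DN131640_c0_g1 did, at 2.39 and 2.08 times. The largest mean meal ratio in spleen was that of TRINITY_DN142540_c9_g1, at 1.45 times with soybean oil and 22.4 times with fish oil. TRINITY_DN111081_c5_g1 followed, at 1.39 and 19.8 times, and its fish oil fold was 11.1 after quantile normalization. Their ratios thus lay mostly in the fish oil pair, in which the library before the meal was far below the other 3 spleen libraries.

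Lower after the meal in spleen were TRINITY_DN117047_c2_g1, at 0.226 times its value before the meal on soybean oil and 0.886 times with fish oil, and TRINITY_DN116327_c1_g1, at 0.582 and 0.467 times. In brain TRINITY_DN141486_c5_g2 was at 3.25 times its value before the meal on soybean oil and at 1.91 times with fish oil. TRINITY_DN117242_c0_g1 was at 1.88 and 2.70 times in brain. After median-ratio scaling these were 4.42 and 1.59 times for the first gene and 2.56 and 2.25 times for the second. In liver this gene lay on the other side, at 127 TPM after and 196 TPM before the meal on soybean oil, and at 108 TPM after and 213 TPM before it on fish oil. TRINITY_DN109498_c1_g1 was lower in brain after the meal, at 8669 TPM after and 14413 TPM before it on soybean oil, and at 4384 TPM after and 21921 TPM before it on fish oil. Its fold on soybean oil was 0.565 after quantile normalization and 0.818 after median-ratio scaling.

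In liver the highest meal ratios were those of TRINITY_DN125266_c4_g1, at 2.80 times with soybean oil and 1.29 times with fish oil, and of TRINITY_DN131640_c0_g1, at 1.73 and 1.93 times. TRINITY_DN109100_c1_g1 stood at 102 TPM after and 297 TPM before the meal in liver on soybean oil, and at 147 TPM after and 165 TPM before it on fish oil. Its 4 liver libraries include the second lowest minimum among the 57 genes, so it passed the floor of 100 TPM narrowly.

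Whether such genes differ between tissues in libraries that did not choose them was tested by applying the same rule to 6 libraries and fitting limma to the other 6. Tissue was tested with an F test on log2 of TPM plus 1. Each fit covered the genes that reached 1 TPM in 2 or more of the 6 tested libraries. It had 2 libraries per tissue and 3 residual degrees of freedom, so that the remaining factor counts as spread. A gene is called at a Benjamini-Hochberg adjusted p under 0.05. In these tests the other abundant genes are those abundant but within the 5-fold range in the choosing libraries, a different set for each fit. Genes chosen before the meal were called in the libraries after the meal in 56 of 58 cases (96.6%), against 49.0% of all genes tested and 68.6% of the genes that were abundant but within the 5-fold range in the choosing libraries. Genes chosen after the meal were called in the libraries before it in 30 of 43 cases (69.8%), against 40.2% of all genes tested and 24.4% of the other abundant genes. Genes chosen in fish oil libraries were called with soybean oil in 50 of 52 cases (96.2%), against 48.5% of all and 26.8% of the other abundant genes. Genes chosen in soybean oil libraries were called with fish oil in 39 of 51 cases (76.5%), against 36.4% of all and 41.0% of the other abundant genes. All genes tested include many of far lower TPM. When only genes of at least 100 TPM in 2 or more tested libraries were fitted, the gap narrowed or turned. The chosen genes were then called in 98.3% after the meal, 79.1% before it, 100% with soybean oil and 80.4% with fish oil. Of all genes in those fits, 92.1%, 83.4%, 86.6% and 86.2% were called. The differences between these shares were not tested, and libraries of the choosing and the tested set share ponds or hours. Both sets also held the same 3 tissues, and the rule favours genes that differ between tissues. The higher shares here, and the wider ranges given next, are therefore tied to the choice and are no independent support.

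The fold between highest and lowest exceeded 5 again in 51 of 58 genes after the meal, 37 of 43 before it, 46 of 52 with soybean oil and 39 of 51 with fish oil. The same held for 8 of 175, 12 of 164, 17 of 168 and 10 of 156 other abundant genes of the choosing libraries. Its median was 13.1 after the meal, against 2.82 for the other abundant genes of the choosing libraries, and 12.3 before the meal, against 2.85. The same medians were 12.9 against 3.46 with soybean oil and 8.61 against 2.68 with fish oil. The highest tissue was the same as in the choosing libraries for 50 of 58 genes after the meal, 38 of 43 before it, 50 of 52 with soybean oil and 47 of 51 with fish oil. Among the other abundant genes it was the same for 144, 134, 135 and 121. The lowest tissue was the same for 48, 38, 43 and 41 of the chosen genes and for 142, 135, 139 and 129 of the others. Of the chosen genes, 43 after the meal, 42 before it, 44 with soybean oil and 50 with fish oil were among the 57.

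**Figure D5:**
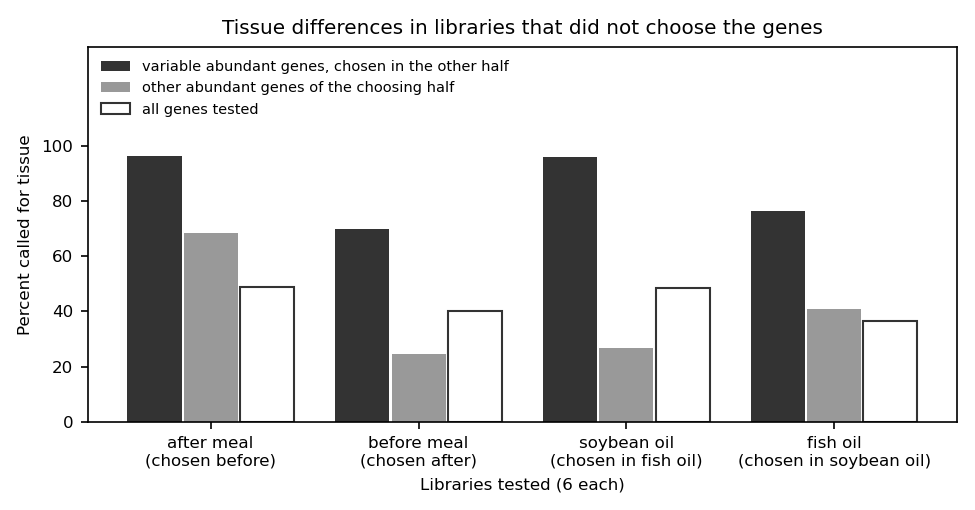
Percent of genes called for tissue by limma in 6 libraries that did not choose them, for genes that passed the rule in the other 6 (black), other abundant genes there (grey) and all genes tested (white). The black bars run from 69.8% to 96.6% and are the tallest of each set of 3. All genes tested include many of far lower TPM. Among genes of at least 100 TPM in 2 or more tested libraries, the gap to all genes fitted narrowed or turned.

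Near the limits of the rule the genes differed little. Just inside the range limit were genes of 5.04 (1356 to 6833 TPM) and 5.05 times (1885 to 9522 TPM), and just outside it genes of 4.97 (126 to 625 TPM) and 4.93 times (174 to 856 TPM). Just inside the floor were genes with lowest values of 100.8 and 102 TPM, and just outside it, at 99.99 and 99.87 TPM, were genes with ranges of 15.5 and 6.70. Of the 57 IDs, 42 (73.7%) shared their Trinity component with at least 1 other ID, which can divide reads between IDs, against 46.7% of all assembled genes. No pair of the 57 shared a component, but whether IDs of different components belong to the same gene was not checked. The other IDs of a component held a median of 0.122% of the component's TPM and exceeded 10% for 1 of the 57 genes, at 39.7%.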

How the data were processed

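The deposited values are TPM per Trinity gene with 2 decimals, 1 column per library, and each column sums to the same total within rounding. Per the labels' protocols, TRIzol-extracted RNA went into TruSeq libraries for an Illumina HiSeq, and Trinity assembled the cleaned reads; the tool behind the TPM values is not given in the sources used here. No reference or annotation was used, and no sequence is printed. The members and all lists were chosen with earlier results of these data known.

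Groups came from the labels. Sums of squares of log2 TPM were split over the full layout. Fits used limma 3.58.1 (trend, robust) in R 4.3.3 on log2(TPM + 1), over genes that reached 1 TPM in 2 or more of the 6 tested libraries (61886 to 70272 genes), with p-values adjusted by Benjamini-Hochberg and called under 0.05. The limma step was tested on simulated data. The simulated fits held 67873 genes after the meal, 64559 before it, 61886 with soybean oil and 70272 with fish oil. A known change was set in liver only, in genes averaging at least 100 TPM on the log2 scale. Of 67 genes per fit given a log2 change of 2, limma recovered 95.5% after the meal, 79.1% before it, 85.1% with soybean oil and 80.6% with fish oil. At a log2 change of 1 it recovered 73.1%, 49.3%, 49.3% and 53.7%. Of 200 genes given no tissue difference, 4%, 4%, 2% and 1% were called. The simulated noise was independent between genes and held no offset of whole libraries, so recovery in the real libraries can differ. The p-values measure only the spread between these libraries. Background counts for single pairs covered genes that reached 1 TPM in 2 or more of the 12 libraries.

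Named genes were, per comparison, at most 2 with the largest and 2 with the smallest mean log2 ratio among those of 1 sign in all matched pairs, those with the highest diet, meal and interaction parts and the widest range, and for each library the gene whose range dropped most without it. Alternatives were other floors, ranges, folds and scales, quantile and median-ratio scaling, the remaining factor as a block, and each library left out; the median-ratio scaling and every choice about the group of 5 were added after seeing the data. Python 3.11.15, numpy 2.4.6, pandas 2.3.3, networkx 3.6.1 and matplotlib 3.10.9 were used. For each gene whose ID is given in the text, in each tissue, a library far from the other 3 was sought with Dixon's ratio.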

Additional observations from a re-analysis of the deposited data

Results flagged for a closer look

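In 4 of the 81 groups of 4 libraries examined, 1 library stood far from the other 3 by Dixon's ratio (95% critical value); chance alone gives about 1 in 20 groups, and these genes were chosen for large differences. TRINITY_DN101462_c1_g1 was at 357.7 TPM in brain with fish oil before the meal, and at 709.2 to 755.6 TPM in the other brain libraries. TRINITY_DN109100_c1_g1 was at 1151 TPM in brain with soybean oil before the meal, and at 536.4 to 561.2 TPM in the other brain libraries. In liver with soybean oil before the meal, TRINITY_DN109498_c1_g1 was at 1879 TPM (other livers 924.6 to 1023 TPM) and TRINITY_DN114044_c3_g2 at 366.8 TPM (other livers 228.2 to 250.8 TPM). All 4 values were in libraries before the meal.

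The sum over the 57 genes moved in opposite directions in some tissues, in every pair of libraries. These differences were not tested, and each value in points is the mean of 2 pairs. With soybean oil against fish oil, the share of TPM was higher by 1.97 percentage points in brain and lower in liver (-2.24 points), a difference of 4.21 points between brain and liver. After against before the meal, it was lower in brain (-3.15 points) and higher by 5.99 points in spleen, a difference of -9.13 points between brain and spleen. In liver it was lower after the meal (-1.45 points), a difference of -7.43 points between liver and spleen. The spleen value averaged 1.99 points with soybean oil and 9.98 points with fish oil. The share of all 191 abundant genes, the 57 included, was also higher with soybean oil in both brain pairs and lower in both liver pairs. That share was lower after the meal in both liver pairs, but its sign differed between diets in brain and in spleen. Without the group of 5 genes the directions of the 57 changed in part. In spleen the share of the other 52 genes was 17.4% after and 17.8% before the meal on soybean oil, and 16.4% after and 16.5% before it on fish oil, lower after the meal in both pairs. In liver it was 4.05% with soybean oil and 4.64% with fish oil after the meal, and 4.83% with soybean oil and 4.69% with fish oil before it, so the diet difference had opposite signs. In brain both directions held.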

How the results depend on the processing

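The number of genes passing the rule was 108 at a floor of 50 TPM, 35 at 200 TPM, 152 for a range above 3, 31 for a range above 10, 97 after quantile normalization (53 of the 57 among them) and 47 after median-ratio scaling (32 of the 57), and 52 to 58 with 1 library left out. Tissue was the largest part in 35 of 35 genes at the 200 TPM floor, 31 of 31 above a 10-fold range, and 55 of 57 by mean squares. The median tissue part was 77.4% on linear TPM and 84.8% to 92.6% under the other alternatives. Genes resting on 1 library numbered 8 after quantile normalization, 43 for a range of 3 and 10 at the 200 TPM floor. Past 1.5-fold or 3-fold in any pair were 52 or 14 genes for diet and 53 or 11 for the meal.

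In the tests of tissue, leaving out 1 library gave 46 to 53 calls after the meal, 18 to 33 before it, 34 to 44 with soybean oil and 19 to 37 with fish oil. The count moved by over 1.5 times without liver with soybean oil before the meal (18), and, with fish oil, without liver after the meal (21) or before it (19). With no filter, 280408 genes were tested. The calls were then 28 of 58 after the meal, 5 of 43 before it, 4 of 52 with soybean oil and 11 of 51 with fish oil. Of all genes 3.09%, 0.87%, 1.26% and 0.82% were called. For a range above 3 the calls were 107 of 124, 48 of 108, 77 of 107 and 96 of 148 chosen genes. These shares, 86.3%, 44.4%, 72.0% and 64.9%, were below the 96.6%, 69.8%, 96.2% and 76.5% at the 5-fold range. Of all genes tested 49.0%, 40.2%, 48.5% and 36.4% were called. With the remaining factor as a block, calls were 56 of 58, 36 of 43, 52 of 52 and 38 of 51. Of all genes tested 43.5%, 48.5%, 50.5% and 32.3% were then called. Each combination of tissue, diet and meal state had 1 library, and no other pairing was used. Without recorded depth, no value here has a counting error.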

Other observations

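Apart from the group of 5, 3 other sets of the 57 genes were linked by correlations of at least 0.9 between their log2 deviations from tissue means over the 12 libraries. They were picked by these values and are given as a description. A set of 6 genes, with a median correlation of 0.850 over its 15 pairs, held 1.19% of TPM in brain on soybean oil before the meal and 0.382% to 0.641% in the other brain libraries. It held 3.72% to 5.59% in the spleen libraries, with both soybean oil spleens above both fish oil spleens. This set included TRINITY_DN110371_c0_g1, TRINITY_DN114044_c3_g2, TRINITY_DN121269_c4_g1, TRINITY_DN137651_c2_g1 and TRINITY_DN143133_c3_g1. Their deviations within tissues, described above, are therefore not separate cases. A set of 5 genes, with a median correlation of 0.902, likewise stood highest in brain on soybean oil before the meal, at 1.51% of TPM, and at 0.672% to 0.807% in the other brain libraries. A further set of 5, also with a median correlation of 0.902, was lowest in brain on fish oil before the meal, at 0.575% of TPM, and at 1.10% to 1.18% in the other brain libraries. In spleen this last set held 1.15% after and 1.92% before the meal on soybean oil, and 1.91% after and 1.28% before it on fish oil. No pair of the 57 genes had a correlation of -0.9 or lower.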
